A study of Mus musculus with 12 samples.

Results

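Of Ptn, Pdgfa, Tgfbr3 and Ecrg4, the first 2 encode secreted growth factors. Tgfbr3 encodes a membrane proteoglycan that presents TGF-β ligands, and Ecrg4 a secreted peptide precursor. These genes were chosen by gene symbol from the probe annotation. The 4 genes had been picked because their values on these arrays differed between genotypes in vehicle glia or with IL-1β. They are 4 of 5723 genes with a probe of a single symbol, and 6 of 8734 probes. A value on every array used here was present for 5 of these 6 probes: Ptn probe 3629, Pdgfa probe 6755, Ecrg4 probe 3267, and Tgfbr3 probes 1931 and 3170. Since the intensities below chose the genes, they are given as a description, with no p-value for any of the 4 genes.

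The cells were primary mixed glial cells, which are cultures of several glial types together. They came from IL-1R1-/- mice, which lack the signalling receptor for interleukin-1, and from wild-type mice, and spent 10 to 12 days in culture first. Within each replicate, called a culture here, rrIL-1β at 10 ng/ml was paired with vehicle, both lasting 4 hours, which gave 2 arrays of IL-1R1-/- IL-1β, 2 of IL-1R1-/- vehicle, 3 of wild-type IL-1β and 3 of wild-type vehicle glia. cDNA of total RNA, labelled with a radioactive nucleotide, was hybridised to each array. Treatments were paired within a culture, and replicates are separate biological samples per the study's design text. The labels do not state age, sex or strain of the mice, or how many animals a culture held.

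Pleiotrophin, the product of Ptn, is a heparin-binding growth factor that blocks the receptor phosphatase PTPRZ1 and acts on neurite outgrowth and on oligodendrocyte precursors. PDGF-A, the product of Pdgfa, is made by astrocytes and neurons and drives the division of oligodendrocyte precursors through the receptor PDGFRA. Betaglycan, the product of Tgfbr3, is a membrane proteoglycan that presents TGF-β ligands, TGF-β2 above all, to the signalling receptors TGFBR2 and TGFBR1. Ecrg4 encodes augurin, a secreted precursor of small peptides that is known in the brain from choroid plexus epithelium.

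The start regions of the genes are shown because IL-1β is known to act through the transcription factors NF-κB and AP-1. Ptn and Ecrg4 also had their highest group mean in wild-type vehicle glia, and Pdgfa in wild-type IL-1β glia. The sequences are from RefSeq (GRCm38.p6), 250 bases before to 50 bases after a start site, 5′ to 3′ on the gene's strand, and 3 of the 4 genes matched an entry. The Ptn and Ecrg4 sites are the annotated gene starts, while the Pdgfa site lies 5848 bases inside the annotated gene, whose outermost start is at 139000792. Capitals mark matches on either strand to any of 7 motifs: the TATA box TATAAA, the GC box GGGCGG, the CCAAT box CCAAT, AP-1 as TGANTCA, the E-box CACGTG, STAT as TTCNNNGAA, and the NF-κB motif by name.
Ptn, chr6:36810130-36810429, minus strand: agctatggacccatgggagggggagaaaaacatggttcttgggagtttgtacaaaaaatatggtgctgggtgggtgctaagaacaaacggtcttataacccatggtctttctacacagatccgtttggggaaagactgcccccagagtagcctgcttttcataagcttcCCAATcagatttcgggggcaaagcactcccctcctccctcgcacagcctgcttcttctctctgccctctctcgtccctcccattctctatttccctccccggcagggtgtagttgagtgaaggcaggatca
Ecrg4, chr1:43730352-43730651, plus strand: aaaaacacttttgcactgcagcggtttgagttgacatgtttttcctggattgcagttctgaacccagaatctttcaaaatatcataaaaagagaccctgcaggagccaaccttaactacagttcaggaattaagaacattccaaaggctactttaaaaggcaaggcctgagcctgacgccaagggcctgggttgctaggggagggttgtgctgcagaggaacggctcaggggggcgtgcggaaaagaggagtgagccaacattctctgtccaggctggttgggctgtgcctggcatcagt
Pdgfa, chr5:138994895-138995194, minus strand: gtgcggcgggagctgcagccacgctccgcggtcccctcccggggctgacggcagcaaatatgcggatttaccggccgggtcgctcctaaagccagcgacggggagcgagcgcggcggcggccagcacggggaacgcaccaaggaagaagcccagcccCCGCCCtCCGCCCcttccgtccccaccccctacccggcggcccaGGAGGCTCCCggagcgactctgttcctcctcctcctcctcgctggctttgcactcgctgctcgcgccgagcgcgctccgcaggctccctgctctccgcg

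The Ptn and Ecrg4 windows are of middling base composition, at the 47.8 and 40.5 percentile of all 32851 windows by G and C content. They hold 6 and 5 CpG sites, where the median window holds 7. The Pdgfa window holds 73.3% G or C and 37 CpG sites, and its G and C content is at the 94.9 percentile of all windows. Its capitals are 2 GC boxes, which 35.7% of all windows hold at least once, and 1 match to the NF-κB motif, which 8.46% hold. A second Pdgfa start region, 6511 bases inside the gene and not shown, had 1 GC box and no other match. Ptn had 1 CCAAT box, a match found in 37.4% of windows. Ecrg4 had none of the 7 motifs. No window of the 3 genes matched AP-1, which 7.81% of all windows do, STAT (8.30%), the TATA box (13.6%) or CACGTG (7.15%). These matches describe letters in the windows and say nothing about binding.

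The deposited intensities are linear, with array medians between 4649 and 60399, so the values below are log2 intensities after quantile normalization between arrays. The medians ran from 32303 to 60399 on the 4 IL-1R1-/- arrays used and from 4649 to 24600 on the 6 wild-type arrays. Array brightness thus followed genotype, and their parts in the genotype differences below cannot be told apart. The columns of IL-1R1-/- replicate 3 were left out because they were rescaled copies: vehicle replicate 3 kept a single ratio to wild-type vehicle replicate 1 at 5959 of 5982 shared probes, and IL-1β replicate 3 to IL-1R1-/- vehicle replicate 1 at 6531 of 6584. Which column of each pair is the original is not given. The Il1r1 probe lay between 13.86 and 14.17 on the 4 IL-1R1-/- arrays, against 13.73 to 15.03 on the 6 wild-type arrays, so it did not separate the genotypes, and whether it lies in the deleted part of the gene is not stated, so it checks nothing about the labels. Of the genes that define the labelled cell types, Gfap and Aif1 have no probe on the array, while the microglial genes Tyrobp, Ctss, C1qc, Itgam and Cd68 had a value on all 10 arrays.

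Ptn, the pleiotrophin gene, had lower intensities in IL-1R1-/- than in wild-type vehicle glia. Its log2 intensity was 15.09 and 15.01 on the IL-1R1-/- vehicle arrays, against 16.49, 16.59 and 15.92 on the wild-type vehicle arrays. Both IL-1R1-/- values lay below all 3 wild-type values. Scaled to the median probe of its array, Ptn stood at 1.89 and 1.69 times the median in IL-1R1-/- vehicle glia, against 5.81, 3.48 and 2.62 times in wild-type vehicle glia. The fitted difference in vehicle glia, IL-1R1-/- minus wild-type, was -1.28 ± 0.26 on the log2 scale (SE, n = 2 and 3 cultures), a 2.44-fold lower intensity, and it ranked 11 from the lowest of 5713 probes.

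With IL-1β, Ptn separated by genotype less. It read 15.35 and 15.07 in IL-1R1-/- IL-1β glia, against 15.91, 15.77 and 15.19 in wild-type IL-1β glia. The lowest wild-type array, replicate 3, fell between the IL-1R1-/- arrays, so these groups overlapped. Within wild-type cultures the IL-1β array was below its vehicle array in 3 of 3 pairs, with differences of -0.58, -0.82 and -0.73. In the IL-1R1-/- cultures it was above its vehicle array by 0.26 and 0.07, but scaled to the array median replicate 2 was lower with IL-1β, at 1.49 times against 1.69 times with vehicle. The fitted IL-1β effects on Ptn were 0.16 ± 0.21 in IL-1R1-/- glia and -0.71 ± 0.17 in wild-type glia, the last a 1.63-fold lower intensity. The effect in IL-1R1-/- glia turned to -0.06 with median centring and to -0.03 with no normalization between arrays.

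**Figure D1:**
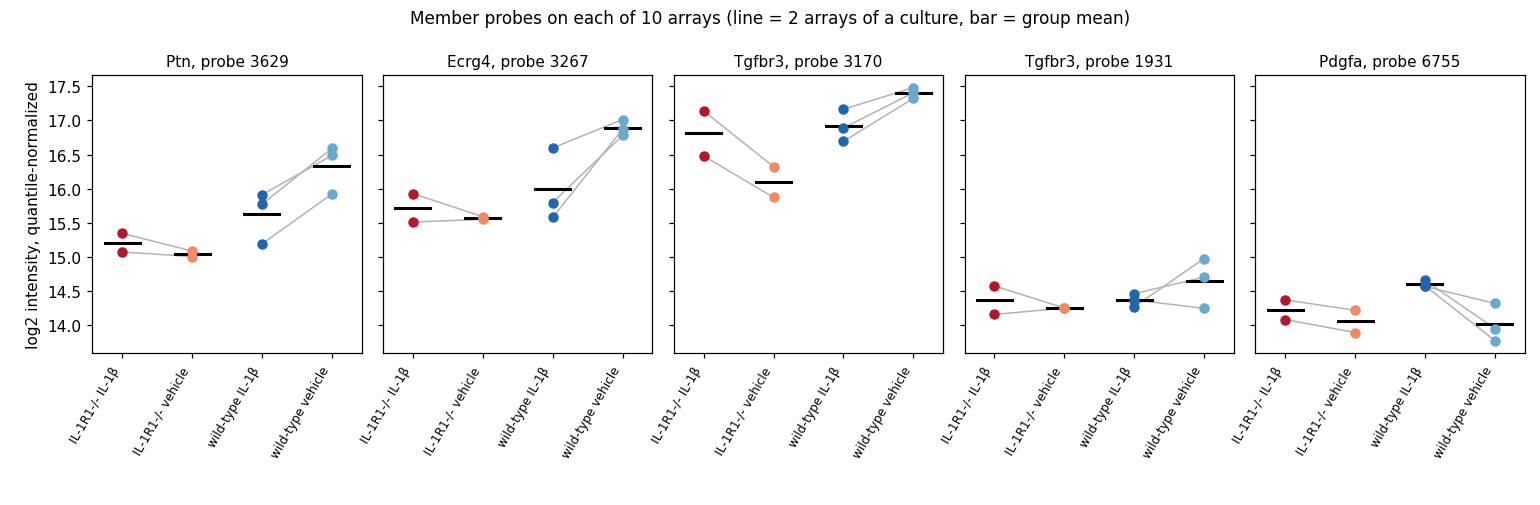
Quantile-normalized log2 intensity (vertical axis) of the 5 member probes on each of 10 arrays, in 4 groups; grey lines join the 2 arrays of a culture and black bars are group means. For Ptn, Ecrg4 and Tgfbr3 probe 3170 the 3 wild-type vehicle arrays lie above the other 7 arrays, and for Pdgfa the 3 wild-type IL-1β arrays do.

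Pdgfa, the PDGF-A gene, had its highest values in wild-type IL-1β glia. Its log2 intensity was 14.66, 14.57 and 14.58 on the wild-type IL-1β arrays, against 13.95, 14.32 and 13.78 on the wild-type vehicle arrays. The treated arrays lay within 0.09 of each other and above every vehicle array. The IL-1β array was the higher in 3 of 3 wild-type pairs, by 0.71, 0.25 and 0.80, and the fitted effect was 0.59 ± 0.18 on the log2 scale. In IL-1R1-/- cultures Pdgfa was 14.37 and 14.09 with IL-1β, against 14.22 and 13.90 with vehicle. These pairs differed by 0.15 and 0.19, both below the smallest wild-type difference, but with the position trend described below removed they were -0.04 and 0.32, against 0.47, 0.17 and 0.30 in wild-type cultures. In vehicle glia the genotypes overlapped, with a fitted difference of 0.04 ± 0.23, while with IL-1β both IL-1R1-/- arrays lay below all 3 wild-type arrays, as for 9.05% of all probes, and the difference was -0.37 ± 0.23.

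Tgfbr3, the betaglycan gene, has 3 probes, and their values differed in pattern. On probe 3170 the receptor gene read 15.87 and 16.32 in IL-1R1-/- vehicle glia, against 17.48, 17.40 and 17.32 in wild-type vehicle glia. Both IL-1R1-/- arrays lay below all 3 wild-type arrays, which were close together. The fitted difference was -1.31 ± 0.25, a 2.47-fold lower intensity, at rank 10 from the lowest. Relative to the array median the probe stood at 4.18 and 4.46 times in IL-1R1-/- vehicle glia, against 11.8, 6.29 and 6.34 times in wild-type vehicle glia.

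The values of probe 3170 with IL-1β differed from vehicle in opposite directions in the 2 genotypes. It read 16.48 and 17.14 in IL-1R1-/- IL-1β glia, above its vehicle arrays by 0.61 and 0.82. In wild-type IL-1β glia it read 17.16, 16.89 and 16.69, below its vehicle arrays, with differences of -0.32, -0.52 and -0.63. The groups with IL-1β overlapped between genotypes, at a fitted difference of -0.10 ± 0.25. The fitted IL-1β effects were 0.71 ± 0.21 in IL-1R1-/- glia and -0.49 ± 0.17 in wild-type glia.

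Probe 1931 of Tgfbr3 gave smaller values. It read 14.25 on both IL-1R1-/- vehicle arrays, against 14.71, 14.98 and 14.25 on the wild-type vehicle arrays, so the groups overlapped at wild-type replicate 3. With IL-1β it read 14.16 and 14.58 in IL-1R1-/- glia and 14.46, 14.27 and 14.37 in wild-type glia. Its genotype difference in vehicle glia was -0.39 ± 0.26 and its IL-1β effects were 0.12 ± 0.24 in IL-1R1-/- glia and -0.27 ± 0.19 in wild-type glia. The third probe, 4368, had values in 3 cultures and was in no fit. With vehicle it stood at 0.917 times the array median in IL-1R1-/- replicate 1. That lay between its 0.801 and 1.12 times in wild-type replicates 2 and 3. Scaled to the array median, its IL-1β array differed from its vehicle array by -0.15 in IL-1R1-/- replicate 1, and by 0.27 and 0.17 in wild-type replicates 2 and 3, the other way round from probe 3170. What differs between the clones behind these probes was not tested.

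Ecrg4, the augurin gene, had the same order of groups as Ptn in vehicle glia. It read 15.55 and 15.59 in IL-1R1-/- vehicle glia, against 16.78, 17.01 and 16.87 in wild-type vehicle glia. The groups did not overlap. Their SDs were 0.027 in IL-1R1-/- (2 arrays) and 0.12 in wild-type vehicle glia, but 0.19 and 0.26 with the position trend removed. The fitted difference was -1.32 ± 0.29, a 2.49-fold lower intensity, at rank 9 from the lowest of 5713. Against the array median Ecrg4 stood at 3.12 and 2.71 times in IL-1R1-/- vehicle glia, and at 7.07, 4.67 and 4.75 times in wild-type vehicle glia.

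The wild-type values of Ecrg4 lay nearer to the IL-1R1-/- values once IL-1β was present. In wild-type glia it read 15.80, 16.60 and 15.58 with IL-1β, below the vehicle array of the same culture, with differences of -0.98, -0.42 and -1.29. The fitted effect in wild-type glia was -0.90 ± 0.20, a 1.86-fold lower intensity. In IL-1R1-/- glia Ecrg4 read 15.51 and 15.93 with IL-1β. They differed from their vehicle arrays by -0.04 and 0.34, so no direction was shared after quantile normalization, and the fitted effect was 0.15 ± 0.24. Scaled to the array median both IL-1R1-/- cultures were lower with IL-1β, at 2.16 and 2.46 times, against 3.12 and 2.71 times with vehicle. The fitted effect turned to -0.32 with median centring, to -0.29 with no normalization between arrays and to -0.04 with the position trend removed. Between genotypes the IL-1β arrays overlapped, at a difference of -0.27 ± 0.29.

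Against the background of all 5713 probes, these counts have limits. In limma's fit across all probes, at an adjusted p below 0.05, 0 of the 5 member probes passed in the vehicle genotype difference, where 0.0175% of all probes did. In wild-type glia with IL-1β 2 of 5 passed, Ptn and Ecrg4, where 6.18% of all probes passed and 1.63% passed as lower. In IL-1R1-/- glia with IL-1β 0 of 5 passed, where 0% of all probes did and 434 had an unadjusted p under 0.05. For the difference of the IL-1β responses between genotypes 0 of 5 passed (0.158% of all), and for the genotype difference with IL-1β 0 of 5 (0.07% of all). Because these contrasts chose the genes, nothing is read from the members' counts.

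Group separation is common on these arrays. The IL-1R1-/- vehicle arrays lay below all wild-type vehicle arrays for 3 of 5 member probes and for 13.1% of all probes. The wild-type IL-1β arrays lay below all wild-type vehicle arrays for Ptn, Ecrg4 and Tgfbr3 probe 3170 and for 7.39% of all probes. They lay above them for Pdgfa and for 8.1% of all. The wild-type IL-1β array was lower in 3 of 3 pairs for the same 3 members and for 20.6% of all probes, and higher in 3 of 3 for Pdgfa and for 19.3% of all. Responses of the IL-1R1-/- pairs lay above those of the wild-type pairs for 3 member probes, Ptn, Tgfbr3 probe 3170 and Ecrg4, and for 15.5% of all.

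**Figure D2:**
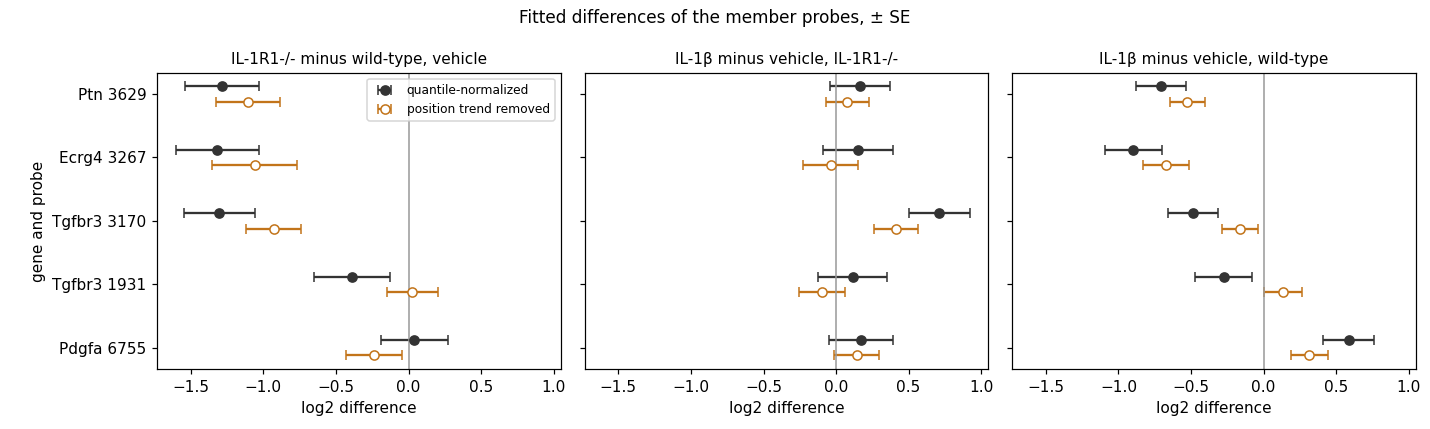
Fitted log2 differences of the 5 member probes (horizontal axis, ± SE) in vehicle glia by genotype and with IL-1β in each genotype, as normalized (filled) and with the position trend removed (open). Ptn, Ecrg4 and Tgfbr3 probe 3170 stay below 0 by genotype in both versions, while Tgfbr3 probe 1931 goes to 0.03 and Pdgfa to -0.24.

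Differences on these arrays also followed the order of the probes, as in plates of 16 by 24 wells with a step after plate 11 of 23, a layout inferred from the values. Ptn, Ecrg4 and both complete Tgfbr3 probes fell in plates up to 11, where the medians of all 24 columns were negative, from -0.27 to -0.03 by genotype in vehicle glia and from -0.30 to -0.02 with IL-1β in wild-type glia. Pdgfa fell in the later plates, where the same medians ran from -0.06 to 0.30 and from 0.02 to 0.29. With IL-1β in wild-type glia each of the 5 member probes thus differed in the direction of the plates around it. In vehicle glia the probes around Ptn had a median genotype difference of -0.11, those around Ecrg4 -0.23 and those around Tgfbr3 probe 3170 -0.36, against -1.28, -1.32 and -1.31 for the genes themselves. The neighbours of Tgfbr3 probe 1931 had -0.40, the same size as its own -0.39. With IL-1β the probes around Tgfbr3 probe 3170 also differed in opposite directions by genotype. Their medians were 0.21 in IL-1R1-/- and -0.33 in wild-type glia, against 0.71 and -0.49 for the probe itself.

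With this position trend removed, the genotype differences in vehicle glia were -1.11 ± 0.22 for Ptn, -1.06 ± 0.29 for Ecrg4 and -0.93 ± 0.19 for Tgfbr3 probe 3170, and the groups of these 3 probes still did not overlap, as for 11.8% of all probes. With IL-1β both IL-1R1-/- arrays then lay below the 3 wild-type arrays for Ptn, Pdgfa and Tgfbr3 probe 1931, as for 10.9% of all probes. Tgfbr3 probe 1931 came to 0.03 ± 0.18 and Pdgfa to -0.24 ± 0.19. The IL-1β effects in wild-type glia became -0.53 ± 0.12 for Ptn, -0.67 ± 0.16 for Ecrg4, 0.31 ± 0.13 for Pdgfa and -0.16 ± 0.12 for Tgfbr3 probe 3170, with the same direction in 3 of 3 pairs for each. The IL-1β and vehicle arrays of wild-type glia then overlapped for Ptn, Ecrg4, Pdgfa and Tgfbr3 probe 3170. After removal 0 of 5 member probes passed in wild-type glia with IL-1β (0.473% of all) and 0 of 5 in the vehicle genotype difference (0% of all, with 433 at an unadjusted p under 0.05). For Tgfbr3 probe 3170 the IL-1β effect in IL-1R1-/- glia was 0.42 ± 0.15.

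**Figure D3:**
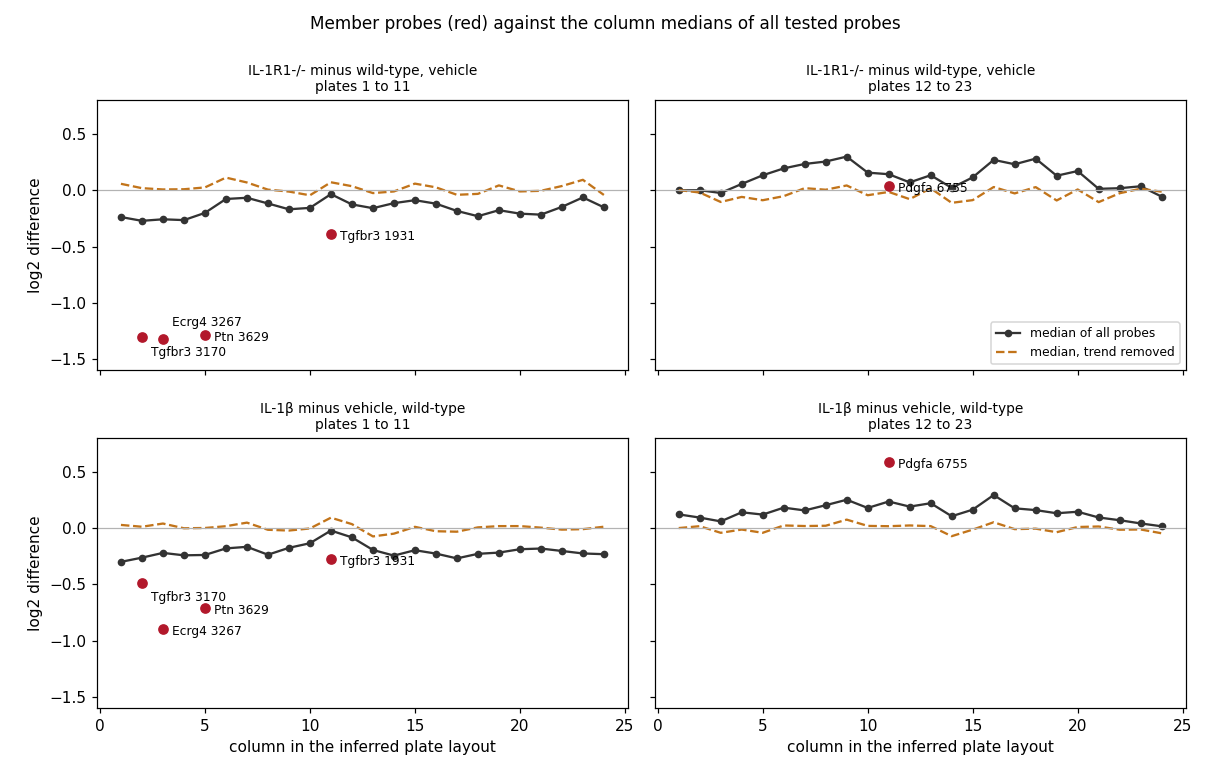
Log2 difference (vertical axis) of the member probes (red) against the column median of all probes (black; dashed orange with the trend removed) along the columns of the inferred plate layout, for plates 1 to 11 and 12 to 23. Ptn, Ecrg4 and Tgfbr3 probe 3170 lie between -1.32 and -1.28 by genotype while no column median there is below -0.27, and Pdgfa at 0.59 with IL-1β lies above a column median of 0.24.

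The scaling mattered as well. Centring each array on its median in place of quantile normalization gave genotype differences in vehicle glia of -1.07 for Ptn, -0.89 for Ecrg4 and -0.85 for Tgfbr3 probe 3170, smaller in size than after quantile normalization for each. Leaving out single cultures, the genotype difference of Ptn ranged from -1.55 (without wild-type replicate 3) to -1.15, that of Ecrg4 from -1.37 to -1.21 and that of Tgfbr3 probe 3170 from -1.56 to -1.09. The call of Ptn with IL-1β in wild-type glia was lost without wild-type replicate 1 or 2 or without either IL-1R1-/- culture, and that of Ecrg4 without wild-type replicate 1 or 3. Both calls were lost with no replicate block and without the copies and their source arrays, and that of Ptn also with each genotype fitted alone. Pdgfa passed in wild-type glia with median centring and with no normalization between arrays, and Tgfbr3 probe 3170 passed in IL-1R1-/- glia with each genotype fitted alone. Ptn, Ecrg4 and Tgfbr3 probe 3170 have no value in the copied columns, so leaving these out removed no value of theirs, and they could not be fitted with all 12 columns. Wild-type vehicle replicate 1 and IL-1R1-/- vehicle replicate 1 were the partners of the copies, and without these arrays the differences were -1.16 for Ptn, -1.34 for Ecrg4 and -1.17 for Tgfbr3 probe 3170, with 1 IL-1R1-/- vehicle array that is assumed to vary like the other groups.

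Across the 10 arrays Ptn and Ecrg4 correlated at r = 0.85 (0.87 with the trend removed), Ptn and Tgfbr3 probe 3170 at 0.78 (0.83), and Tgfbr3 probe 3170 and Ecrg4 at 0.78 (0.74). Pdgfa had r between -0.28 and -0.0041 with the other 4 probes, and between 0.15 and 0.70 with the trend removed. The probes of Tgfbr3 correlated at 0.67, and at 0.16 with the trend removed. The arrays share cultures in pairs, and the genes were chosen for these group differences, so these values are a description.

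**Figure D4:**
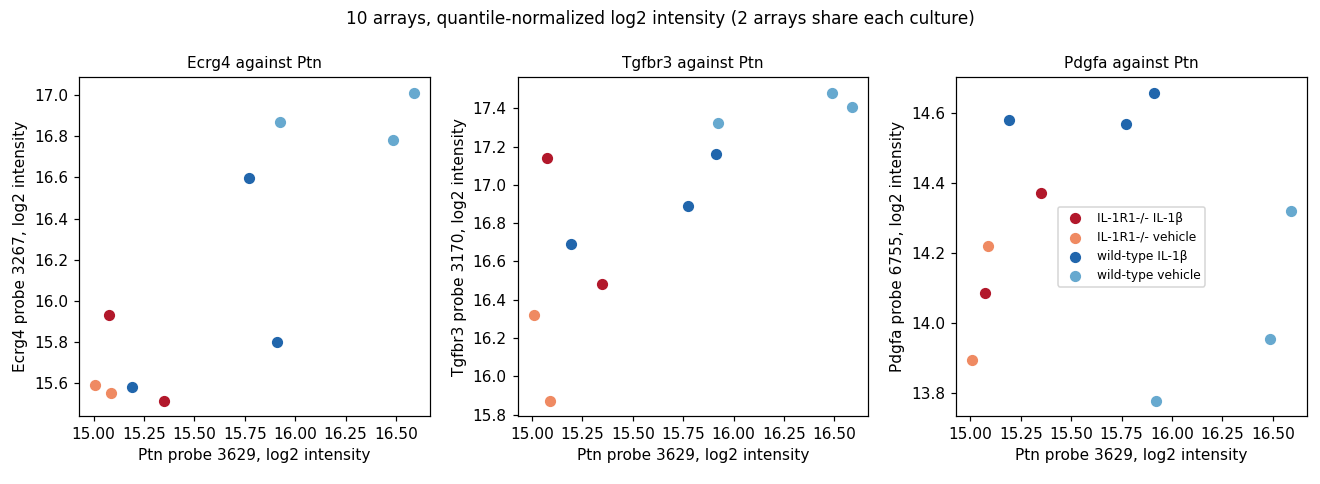
Log2 intensity of Ecrg4, Tgfbr3 probe 3170 and Pdgfa (vertical axes) against Ptn (horizontal axis) on 10 arrays, coloured by group. The 3 wild-type vehicle arrays lie at the upper right for Ecrg4 and Tgfbr3, and the IL-1R1-/- vehicle arrays at the lower left; for Pdgfa the groups have no such order.

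The genes most like each member over the 10 arrays depended on the trend. For Ptn they were Sfn (r = 0.97), Fgfr1 (0.93), a receptor for fibroblast growth factors, and Atpaf2 (0.92). Fgfr1 had r = 0.93 with the trend removed as well, and a genotype difference in vehicle glia of -0.87 and -0.53 with the trend removed. For Pdgfa they were Rsad2 (0.92), an interferon-inducible antiviral gene, Dtx3l (0.90) and Mtap (0.90). Rsad2 had r = 0.87 with the trend removed, and its IL-1β effect in wild-type glia was 1.11, or 0.88 with the trend removed. For Tgfbr3 probe 3170 they were Meg3 (0.93), Anks3 (0.91) and Fam219b (0.90), and for Ecrg4 Rbm25 (0.94), Ddx51 (0.92) and Brca2 (0.92). With the trend removed these last 3 had r of 0.73, 0.34 and 0.52. A ranking on the values with the trend removed shared 0 of the 12 genes.

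Direct partners of the 4 genes were mostly out of reach of this array. Of 17 listed ligands, receptors and co-receptors 6 have a probe, and 5 were measured on all 10 arrays: Pdgfc, Pdgfra, Tgfb2, Tgfbr1 and Eng. None of their 6 probes passed in any of the 5 comparisons (limma, adjusted p from 0.415 up). Pdgfra, the receptor of PDGF-A, had genotype differences in vehicle glia of -0.08 ± 0.26 on probe 8135 and 0.29 ± 0.22 on probe 6980, and IL-1β effects in wild-type glia of -0.28 ± 0.20 and -0.01 ± 0.17. Its pairs had no shared direction in wild-type glia on either of these probes, at -0.52, 0.25 and -0.57 for probe 8135. Pdgfra probes 3792 and 7367 lacked values in wild-type replicate 2, so they have no fitted difference here. Scaled to the array median, both were lower with IL-1β in every culture with values. On the log2 scale probe 3792 differed by -0.17 and -1.14 in wild-type and by -0.19 and -0.43 in IL-1R1-/- cultures. Probe 7367 differed by -0.17 and -1.11, and by -0.92 and -0.32. Tgfb2, the ligand that depends most on betaglycan, differed by -0.16 ± 0.23 between IL-1R1-/- and wild-type vehicle glia, and Tgfbr1, the signalling receptor, by -0.03 ± 0.25. Eng, the endothelial co-receptor akin to betaglycan, differed by -0.04 ± 0.26. Pdgfc, another ligand of PDGFRA, differed by -0.30 ± 0.24.

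Midkine, encoded by Mdk, is the other member of the pleiotrophin family, and its probe lacked values in IL-1R1-/- replicate 2. Scaled to the array median, Mdk read 0.882 with IL-1β and 0.820 with vehicle in IL-1R1-/- replicate 1. In wild-type glia it read 0.889, 0.992 and 1.13 with IL-1β, against 0.709, 0.643 and 0.647 with vehicle. The wild-type IL-1β arrays lay above the vehicle arrays in 3 of 3 pairs, by 0.33, 0.63 and 0.80 on the log2 scale, where Ptn lay below in 3 of 3. After quantile normalization 19.3% of all probes were higher and 20.6% lower in 3 of 3 wild-type pairs. The Mdk probe lies near the Pdgfa probe in the probe order. With IL-1β in wild-type glia the probes around Pdgfa had a median difference of 0.28, and those around Ptn -0.15. Mdk and Ptn thus each differed in the direction of the probes around them. Mdk was in no fit across all probes, the position trend was not removed from it, and the difference was not tested.

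Apart from the 4 genes, 136 genes were listed in 6 groups by function, of which 50 have a probe and 32 were measured on all 10 arrays, the 5 measured partners among them. None of the 32 passed in any of the 5 comparisons. Their differences ran from -0.70 to 0.76 by genotype in vehicle glia (median -0.08, against -0.03 over all probes) and from -0.59 to 0.42 with IL-1β in wild-type glia (median -0.09, against -0.04 over all probes). At an unadjusted p under 0.05 there were 0 by genotype in vehicle glia and 5 with IL-1β in wild-type glia. Of all 5713 probes 489 and 1205 had such a p in these comparisons.

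In pleiotrophin and midkine signalling 5 of 17 genes were measured, with a median genotype difference in vehicle glia of 0.13. The smallest p belonged to Fyn, a Src family kinase, at -0.52 ± 0.25, and to Nrp1, a co-receptor, at 0.37 ± 0.27. In PDGF signalling 5 of 19 were measured, with a median of -0.08, and Pdgfc and Pdap1, a PDGF-associated protein, came nearest, the second at -0.37 ± 0.32. Among TGF-β ligands, receptors and transducers 12 of 38 were measured, with a median of -0.15 (0.03 with the trend removed). Bmp1, a metalloprotease that releases TGF-β family ligands, was -0.49 ± 0.26 and Smad4, the shared transducer, -0.41 ± 0.22. Of TGF-β target genes 5 of 22 were measured, with a median of -0.09, and Ccn1 was -0.60 ± 0.28 and Ski, a repressor of SMAD signalling, 0.76 ± 0.52. Of other trophic factors 5 of 30 were measured, with a median of -0.06, and Igfbp5, which binds insulin-like growth factors, was -0.70 ± 0.36 and Kitl, the ligand of the receptor KIT, -0.16 ± 0.34. The adjusted p of these genes in limma lay between 0.596 and 0.938. Of 11 genes listed for their relation to Ecrg4, 0 were measured.

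With IL-1β in wild-type glia the same lists had medians of 0.12 for pleiotrophin and midkine signalling, 0.03 for PDGF signalling, -0.18 for TGF-β ligands and receptors, -0.09 for TGF-β targets and 0.15 for trophic factors. With the trend removed these medians were -0.02, -0.14, -0.02, 0.05 and -0.04, so 4 of the 5 changed sign. Nearest to the threshold were Acvrl1, a TGF-β family receptor, at -0.58 ± 0.19 and Bmp1 at -0.59 ± 0.19 (limma, adjusted p = 0.0883 and 0.0887), which came to -0.24 and -0.26 with the trend removed. Git1, a substrate of the pleiotrophin receptor PTPRZ1, was -0.47 ± 0.21 and Fyn -0.33 ± 0.19. Pdgfc and Pdgfra were both at -0.28. Skil, a repressor of SMAD signalling, was -0.28 ± 0.18 and Ccn1 -0.18 ± 0.21. Fgf1 was 0.34 ± 0.17 and Igfbp5 -0.43 ± 0.23.

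Markers of the cell types in such cultures were set beside the 4 genes, since in bulk RNA fewer cells of a type and less RNA per cell cannot be told apart. Of 95 listed marker genes 22 were measured, and in the vehicle genotype difference none passed (limma). At an unadjusted p under 0.05 there were 5, against 489 of all 5713 probes. The astrocyte genes measured were Slc1a2 and Glul, 2 of 13. Slc1a2, a glutamate transporter, differed by 0.78 ± 0.29 between IL-1R1-/- and wild-type vehicle glia (limma, adjusted p = 0.396), and Glul, glutamine synthetase, by -0.89 ± 0.34 (limma, adjusted p = 0.44). Their mean lay between 14.86 and 15.16 on the IL-1R1-/- vehicle arrays, against 14.89 to 15.18 on the wild-type vehicle arrays, so it overlapped.

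The ependymal and choroid plexus list bears on Ecrg4. Its 2 measured genes of 12, Aqp1 and Cd24a, had a mean of 14.73 to 14.98 in IL-1R1-/- vehicle glia, against 15.19 to 15.53 in wild-type vehicle glia. The groups of this mean did not overlap and lay in the same order as Ecrg4, as single probes did for 13.1% of all probes. Ttr, another gene of this list, has a probe but no value on some arrays. With IL-1β in wild-type glia this mean was 15.27 to 15.61, not below the vehicle range, while Ecrg4 was below. The 2 genes of the mean differed in direction there, Aqp1 by 0.36 ± 0.22 and Cd24a by -0.08 ± 0.18. The part of these cells in the Ecrg4 difference was not tested. Oligodendrocyte lineage genes, 3 of 14 (Olig2, Mbp and Pdgfra), had a mean of 14.61 to 14.86 in IL-1R1-/- vehicle glia, against 14.32 to 15.58 in wild-type vehicle glia. Microglial genes, 5 of 18, had a mean of 15.83 to 16.12 in IL-1R1-/- vehicle glia, against 15.75 to 15.88 in wild-type vehicle glia. Neuronal genes, 2 of 14, lay at 15.29 to 15.50 in IL-1R1-/- vehicle glia, against 14.94 to 15.35 in wild-type vehicle glia. Meningeal fibroblast genes, 2 of 12, lay at 13.59 to 13.88 in IL-1R1-/- vehicle glia, against 13.63 to 13.84 in wild-type vehicle glia, and endothelial and mural genes, 6 of 12, at 13.97 to 14.01 in IL-1R1-/- vehicle glia, against 13.73 to 14.21 in wild-type vehicle glia. The ranges of these 5 lists overlapped between genotypes. By gene, the vehicle genotype difference was negative for 3 of 3 oligodendrocyte lineage genes, 2 of 5 microglial and 1 of 2 neuronal genes. It was also negative for 1 of 2 meningeal and 3 of 6 endothelial and mural genes. The oligodendrocyte lineage genes had a median of -0.41, or -0.47 with the trend removed, against -0.03 over all probes.

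With IL-1β in wild-type glia 2 of the 22 markers passed, where 6.18% of all probes did. Glul fell by 0.84 on the log2 scale (limma, adjusted p = 0.0291), while Slc1a2, the other astrocyte gene measured, differed by 0.10 ± 0.21, and Emcn, an endothelial sialomucin, rose by 0.84 (limma, adjusted p = 0.0187). With the trend removed neither passed, at -0.58 (limma, adjusted p = 0.112) for Glul and 0.22 (limma, adjusted p = 0.555) for Emcn. In IL-1R1-/- glia none of the 22 passed.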

How the data were processed

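Gene expression was measured on 12 arrays of mouse mixed glia, of which 10 were used. The authors deposited 1 linear intensity per probe and array; background correction, scaling and software: not given in the sources used here. Intensities were log2-transformed and quantile-normalized over the 5713 of 8734 probes with a value on all 10 arrays. limma 3.58.1 in R 4.3.3 (statmod 1.5.0) fitted IL-1β effects with culture as a fixed block, and genotype differences between group means with a random culture effect (correlation 0.388), with two-sided tests and Benjamini-Hochberg adjustment at 0.05. The study's design text states paired treatments, and arrays of a culture deviated together (r = 0.562 in IL-1R1-/- cultures, and 0.468, 0.582 and 0.261 in wild-type cultures). Probe symbols come from the platform annotation: 7153 probes have 1 symbol, 387 several and 1194 none. The position trend was a loess surface (span 0.2) over the row and column of the inferred plate layout. It was fitted on each array to deviations from the probe mean, separately for plates 1 to 11 and 12 to 23. The columns of IL-1R1-/- replicate 3 were left out as rescaled copies, with ratios equal within 1e-04 on the log2 scale.

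The members, gene lists and markers were chosen with earlier results of these data known. Each gene of a list was represented by its probe of highest mean intensity. From each list the text names genes that passed, or else the 2 with the smallest p, and for each member the 3 genes of highest correlation over the 10 arrays. The number of arrays limits the precision. Methods were tested on simulated data. These held no position trend and no brightness difference between arrays, so that test cannot show how the methods deal with either.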

Additional observations from a re-analysis of the deposited data

Results flagged for a closer look

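After quantile normalization every wild-type pair of Ptn was lower with IL-1β and every IL-1R1-/- pair higher, and the IL-1β effects differed between IL-1R1-/- and wild-type glia by 0.87 on the log2 scale. For Tgfbr3 probe 3170 the pairs also moved in opposite directions, and the effects differed by 1.20. The probes around probe 3170 had medians in the same opposite directions, 0.21 in IL-1R1-/- and -0.33 in wild-type glia. IL-1R1-/- responses lay above all wild-type responses for 15.5% of all probes. In limma's fit across all probes neither the Ptn nor the Tgfbr3 probe 3170 difference passed the threshold. No p-value is given, since the genes were chosen on these contrasts. The IL-1R1-/- direction of Ptn depended on the scaling: the effect there was 0.16 after quantile normalization, -0.06 with median centring and -0.03 with no normalization between arrays. That of Tgfbr3 probe 3170 was 0.71, 0.27 and 0.30 under the same settings. With the position trend removed the differences were 0.60 for Ptn and 0.58 for Tgfbr3 probe 3170. Ecrg4, whose IL-1R1-/- pairs shared no direction, had a response difference of 1.05, or 0.64 with the trend removed.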

How the results depend on the processing

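In vehicle glia 1 probe passed by genotype, against 102 with median centring, and 0 with the trend removed, with no normalization between arrays, with gaps kept, with all 12 columns, without the copies and their source arrays, with the dimmest probes left out or from arrays of 1 treatment alone; leaving out single cultures gave 0 to 32. With IL-1β in wild-type glia 353 passed, against 27 with the trend removed, 633 with gaps kept, 150 with all 12 columns, 71 without the copies and their source arrays and 175 with each genotype fitted alone; leaving out single cultures gave 54 to 343. With no replicate block 14 passed, and the IL-1β responses differed at 0 probes, against 9 with the pairing. In IL-1R1-/- glia 0 passed with IL-1β, against 153 with no normalization, 177 with median centring and 108 with each genotype fitted alone (0 to 1 leaving out cultures). The response difference gave 240 with no normalization, 264 with median centring and 30 with gaps kept (3 to 69 leaving out cultures). The genotype difference with IL-1β gave 4, against 0 with no normalization or median centring, 2 with gaps kept or without the copies and their source arrays, and 1 from arrays of 1 treatment alone (0 to 5 leaving out cultures). With no normalization the vehicle genotype differences were 0.71 for Ptn, 1.82 for Pdgfa, 0.93 for Tgfbr3 probe 3170 and 0.89 for Ecrg4. These carry the scale of whole arrays, whose medians ran from 4649 to 24600 in wild-type and from 32303 to 60399 in IL-1R1-/- glia. Median centring gave -0.85 for Tgfbr3 probe 3170 and -0.89 for Ecrg4. Trend removal gave -0.24 for Pdgfa, -0.93 for Tgfbr3 probe 3170 and -1.06 for Ecrg4, and with IL-1β in wild-type glia -0.53 for Ptn and -0.16 for Tgfbr3 probe 3170. Leaving out single cultures gave vehicle genotype differences of -1.55 to -1.15 for Ptn, -1.56 to -1.09 for Tgfbr3 probe 3170 and -1.37 to -1.21 for Ecrg4. The cause of the other changes was not tested.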
